A study of Mus musculus with 10 samples.

Results

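A set of 10 genes that mark or regulate neural progenitors were followed through 10 RNA-seq libraries of differentiating mouse embryonic stem cells. They are *Pax6*, *Nr2f1*, *Nes*, *Fabp7*, *Msi1*, *Slc1a3* and the 4 POU3 factors *Pou3f1*, *Pou3f2*, *Pou3f3* and *Pou3f4*. They were chosen by gene symbol as a working list of radial glia genes and POU3 factors, and make up 10 of the 21937 genes in the deposited table. Values are RPKM, read counts divided by gene length and by library size, so levels can be set side by side between genes.

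The cells were C57BL/6 and the study concerns Tet3, an enzyme that oxidises 5-methylcytosine in DNA. In the SFEB culture, which the submitters describe as leading to neuroectoderm, 3 conditions were sampled on days 6 and 10: WT cells, Tet3 KO cells, and Tet3 KO cells with Dkk, a secreted inhibitor of Wnt signalling. In a second culture with FBS (serum), described as not permissive for neural differentiation, control (CTL) and Tet3-overexpressing cells were sampled on days 4 and 7. Each condition and day had 1 library, so a difference between 2 libraries has no replicate check, and neighbouring levels in any order below can be told apart only against counting error. The Tet3 KO line came from cells with floxed Tet3 alleles after transient Cre had removed the floxed exon. The labels name no separate clones, and do not say how Tet3 was overexpressed or what the control cells carried.

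Radial glia are the elongated stem cells of the embryonic neural tube, which give rise to neurons and later to glia. *Pax6* and *Nr2f1* encode transcription factors that pattern the forebrain and other neural tissue. Nestin, the product of *Nes*, is an intermediate filament; *Fabp7* encodes the brain lipid-binding protein; *Msi1* encodes an RNA-binding protein of stem cells; and *Slc1a3* encodes the glutamate transporter GLAST of radial glia and astrocytes. The POU3 (class III POU) factors bind octamer-like DNA and act in neural fate choice and neuronal differentiation; *Pou3f1* is also a gene of the epiblast-like stage that precedes neural commitment.

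The start-site sequences of the 5 genes that passed the test between day 6 and day 10 of the SFEB culture (below) show how unlike each other these genes are at their starts. Each sequence runs 5′ to 3′ on the gene's strand from 250 bases before to 50 bases after the RefSeq start (build GRCm38.p6), and capitals mark CG dinucleotides. *Pou3f2* lies at chr4:22488317-22488616 on the minus strand, *Pou3f3* at chr1:42695518-42695817 on the plus strand, and *Pou3f4* at chrX:110814129-110814428 on the plus strand. *Fabp7* lies at chr10:57784673-57784972 on the plus strand and *Slc1a3* at chr15:8710758-8711057 on the minus strand.
Pou3f2: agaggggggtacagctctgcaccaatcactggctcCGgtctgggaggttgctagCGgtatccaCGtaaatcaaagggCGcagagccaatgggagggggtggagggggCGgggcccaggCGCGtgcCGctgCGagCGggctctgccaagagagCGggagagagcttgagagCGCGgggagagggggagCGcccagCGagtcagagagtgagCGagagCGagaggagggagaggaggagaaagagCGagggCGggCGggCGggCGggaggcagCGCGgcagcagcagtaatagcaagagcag
Pou3f3: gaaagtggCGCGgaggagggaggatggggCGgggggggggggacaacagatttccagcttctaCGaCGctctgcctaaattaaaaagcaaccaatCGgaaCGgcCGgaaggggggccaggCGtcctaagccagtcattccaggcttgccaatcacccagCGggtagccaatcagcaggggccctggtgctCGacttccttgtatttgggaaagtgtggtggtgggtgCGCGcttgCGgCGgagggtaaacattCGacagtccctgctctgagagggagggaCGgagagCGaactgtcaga
Pou3f4: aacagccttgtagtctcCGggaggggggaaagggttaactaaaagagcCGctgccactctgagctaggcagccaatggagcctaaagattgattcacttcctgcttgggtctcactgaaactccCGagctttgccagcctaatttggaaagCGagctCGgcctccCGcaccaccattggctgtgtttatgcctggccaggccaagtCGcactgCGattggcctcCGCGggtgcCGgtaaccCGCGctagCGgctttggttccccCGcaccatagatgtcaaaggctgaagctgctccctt
Fabp7: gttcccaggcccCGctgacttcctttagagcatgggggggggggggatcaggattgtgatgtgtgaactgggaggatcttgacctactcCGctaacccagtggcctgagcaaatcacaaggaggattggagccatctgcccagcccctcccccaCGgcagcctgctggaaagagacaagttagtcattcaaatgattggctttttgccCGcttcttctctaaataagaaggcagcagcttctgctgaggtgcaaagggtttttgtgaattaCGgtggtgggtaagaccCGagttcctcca
Slc1a3: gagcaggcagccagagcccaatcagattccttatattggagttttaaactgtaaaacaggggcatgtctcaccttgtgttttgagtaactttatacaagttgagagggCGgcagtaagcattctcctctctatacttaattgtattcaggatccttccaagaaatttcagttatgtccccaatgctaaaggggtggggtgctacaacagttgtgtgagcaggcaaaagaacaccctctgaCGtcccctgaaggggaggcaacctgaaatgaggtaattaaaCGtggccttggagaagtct

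The 3 POU3 windows held 24 CG dinucleotides in *Pou3f2*, 18 in *Pou3f3* and 15 in *Pou3f4*. The *Fabp7* window held 6 and the *Slc1a3* window 3, against a median of 7 over 32851 promoters of the same length. Windows for 8 of the 10 genes were matched, 10 windows in all; *Msi1* and *Pou3f1* had no entry. *Nr2f1* had 23 CG dinucleotides at one start and 4 at the other, *Pax6* had 18 and 16, and *Nes* had 18. The octamer ATGCAAAT, searched on both strands, was in 0 of the 10 windows and in 1.74% of all promoters, which says only that these letters are not in these windows. The table gives no methylation values, so nothing in it bears on the state of these CG dinucleotides.

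The libraries held between 11028 and 12152 genes at 1 RPKM or more. From the size of the steps between low values, the SFEB libraries were estimated at 10100000 to 36800000 counted reads and the FBS libraries at 17400000 to 44500000; the estimates for both FBS controls and for Tet3 KO with Dkk on day 10 are the least certain, since a larger total fitted them better. *Tet3* itself was at 0.96 RPKM in the FBS control and 12.52 with overexpression on day 4, and at 5.87 and 14.11 on day 7. In SFEB it was at 8.11 in WT and 6.59 in KO on day 6, and at 10.22 and 14.32 on day 10; a whole-gene value does not check the removal of 1 exon. All libraries are labelled embryonic stem cells. The 8 pluripotency markers summed to between 334 and 1967 RPKM in the FBS libraries and to between 13.3 and 76.8 RPKM in the SFEB libraries, so these markers of the labelled cell type were low in SFEB.

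Of the 10 genes, 8 were higher in all 6 SFEB libraries than in any of the 4 FBS libraries, and *Slc1a3* and *Pou3f1* were not. Among 13757 genes at 1 RPKM or more somewhere, 20.0% showed this separation and 12.2% the opposite one, which 0 of the 10 genes showed. The cultures also differed in sampling days and in the cells compared (WT and KO, or CTL and overexpressing), so these cannot be told apart from the medium. In such bulk samples, fewer cells of a type and less RNA per cell cannot be told apart either.

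*Pax6* stood at 21.58, 33.07 and 18.05 RPKM in WT, Tet3 KO and KO with Dkk on day 6, and at 23.84, 29.64 and 14.87 on day 10. In FBS it was at 1.57 and 0.33 RPKM in the control on days 4 and 7, and at 5.71 and 3.47 with Tet3 overexpression. Among the SFEB libraries the KO was the highest and the KO with Dkk the lowest on both days, and the overexpressing libraries were above both controls. The antisense neighbour *Pax6os1* was at 0 to 0.19 RPKM throughout.

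*Nr2f1*, also known as COUP-TFI, was at 53.06, 34.98 and 39.12 RPKM in WT, KO and KO with Dkk on day 6, and at 69.76, 84.79 and 82.74 on day 10. The FBS values were 0.41 and 2.30 RPKM in the control and 0.39 and 0.26 with overexpression. The lowest SFEB library was 15.2-fold above the highest FBS library, which was the control on day 7.

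*Nes* was at 57.27, 35.55 and 47.70 RPKM on day 6 in the same order, and at 73.31, 80.60 and 78.10 on day 10. In FBS it was at 31.45 and 11.38 RPKM in the control and at 8.61 and 16.74 with overexpression. The separation of the cultures was narrow here: the lowest SFEB library was 1.13-fold above the highest FBS library. Nestin is also made outside the nervous system, in young muscle and vessel walls. The 8 endothelial markers summed to 18.0 and 113 RPKM in the FBS control on days 4 and 7, and to 18.5 and 24.8 with overexpression. The 8 skeletal muscle markers summed to 5.78 and 17.4 RPKM in the control and to 2.14 and 5.35 with overexpression. The part of these markers in the *Nes* values was not tested.

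*Fabp7* reached the highest RPKM of the 10 genes. It was at 137.47, 58.76 and 81.57 RPKM on day 6 and at 623.88, 759.45 and 713.15 on day 10. Its percentile among all genes on day 10 was 99.74 in WT, 99.74 in KO and 99.66 in KO with Dkk. In FBS it was at 1.43 and 0.72 RPKM in the control and at 1.11 and 3.75 with overexpression.

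*Msi1* was at 78.65, 50.20 and 80.69 RPKM on day 6 and at 62.05, 67.66 and 94.11 on day 10, the narrowest SFEB range of the 10 genes at 1.87-fold. The FBS values were 20.32 and 14.39 RPKM in the control and 11.24 and 17.10 with overexpression. Its paralog *Msi2* was at 23.6 to 33.8 RPKM in SFEB and at 10.6 to 12.4 RPKM in FBS.

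*Slc1a3* did not separate the cultures. It was at 2.84, 4.92 and 3.57 RPKM on day 6 and at 12.01, 26.64 and 9.12 on day 10, while the FBS libraries held 8.05 and 6.14 RPKM in the control and 5.92 and 9.33 with overexpression. All 3 SFEB libraries of day 6 lay below all 4 FBS libraries, and the KO on day 10 was the highest of the 10 libraries. For this gene the name radial glia gene did not describe the day 6 libraries.

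**Figure D1:**
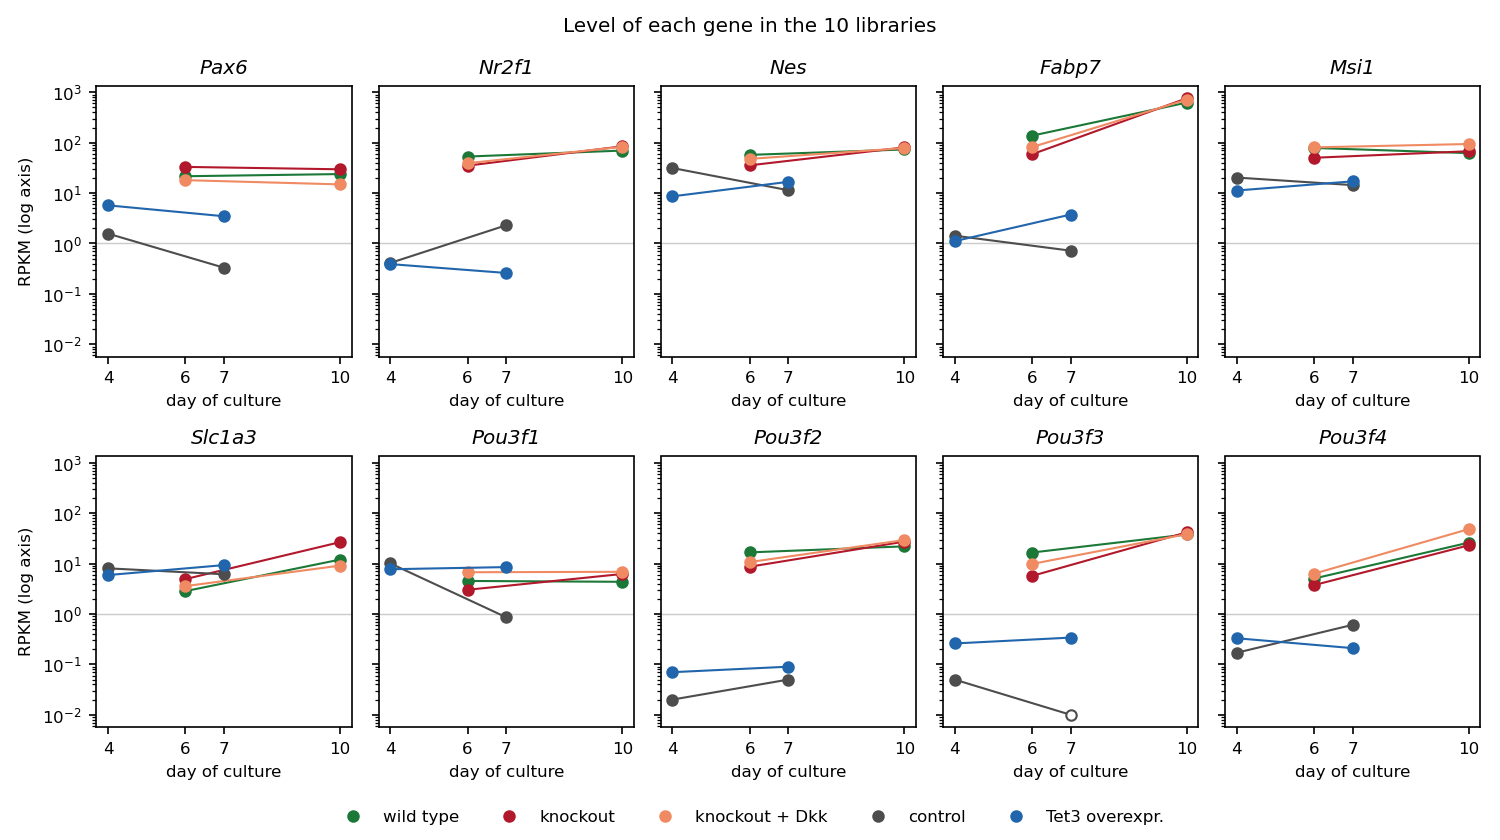
RPKM (log axis) of each gene against the day of culture; each point is 1 library, lines join the days of 1 condition, the grey line is at 1 RPKM, and the open point is *Pou3f3* listed at 0, drawn at 0.01. *Pou3f2*, *Pou3f3* and *Pou3f4* stay under 1 RPKM in the FBS libraries, whereas *Slc1a3* and *Pou3f1* overlap between the cultures.

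The POU3 factors split into *Pou3f1* and the other 3. *Pou3f2* was at 16.68, 8.67 and 10.72 RPKM in WT, KO and KO with Dkk on day 6, and at 21.96, 27.33 and 29.33 on day 10, against 0.02 to 0.09 RPKM in FBS. Its lowest SFEB library was 96.3-fold above its highest FBS library, the widest gap of the 10 genes. The FBS values correspond to an estimated 5.0 to 8.8 reads per library. For overexpression against control, the 95% counting interval of the log2 ratio, without the pseudocount, was 0.10 to 3.76 on day 4 and -0.75 to 2.37 on day 7, so a day 7 difference was not detectable at this depth.

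*Pou3f3* was at 16.55, 5.68 and 9.82 RPKM on day 6 and at 37.81, 41.62 and 38.36 on day 10. In FBS it was at 0.05 RPKM and listed at 0 in the control, and at 0.26 and 0.34 with overexpression. *Pou3f4* was at 5.05, 3.74 and 6.30 RPKM on day 6 and at 26.08, 23.06 and 48.37 on day 10. In FBS it was at 0.17 and 0.61 RPKM in the control and at 0.33 and 0.21 with overexpression, and its SFEB and FBS libraries did not overlap.

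*Pou3f1* ran the other way round. It was at 4.52, 3.02 and 6.73 RPKM on day 6 and at 4.35, 6.22 and 6.87 on day 10, while 3 of the 4 FBS libraries were higher, at 10.11 RPKM in the control on day 4 and at 7.72 and 8.52 with overexpression. The control on day 7 was the lowest of the 10 libraries, at 0.86 RPKM. The summed pluripotency markers ran with it in FBS, at 1967 and 334 RPKM in the control on days 4 and 7 and at 1855 and 1396 with overexpression; their part in the *Pou3f1* values was not tested.

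Because RPKM is scaled by length, the 4 POU3 levels can be summed. In FBS the sum was 10.35 and 1.52 RPKM in the control and 8.38 and 9.16 with overexpression, and *Pou3f1* made up 97.7%, 56.6%, 92.1% and 93.0% of it in that order. In SFEB the sum was 42.8, 21.11 and 33.57 RPKM on day 6 and 90.2, 98.23 and 122.93 on day 10, and *Pou3f1* made up 10.6%, 14.3% and 20.0% on day 6 and 4.82%, 6.33% and 5.59% on day 10. *Pou3f1* levels thus overlapped between the cultures while its share of the sum did not. Within SFEB, *Pou3f2* went from between 31.9% and 41.1% of the sum on day 6 to between 23.9% and 27.8% on day 10. *Pou3f4* went from between 11.8% and 18.8% to between 23.5% and 39.3%. *Pou3f3* held the largest share in WT and KO on day 10, at 41.9% and 42.4%, and *Pou3f4* in KO with Dkk, at 39.3%.

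**Figure D2:**
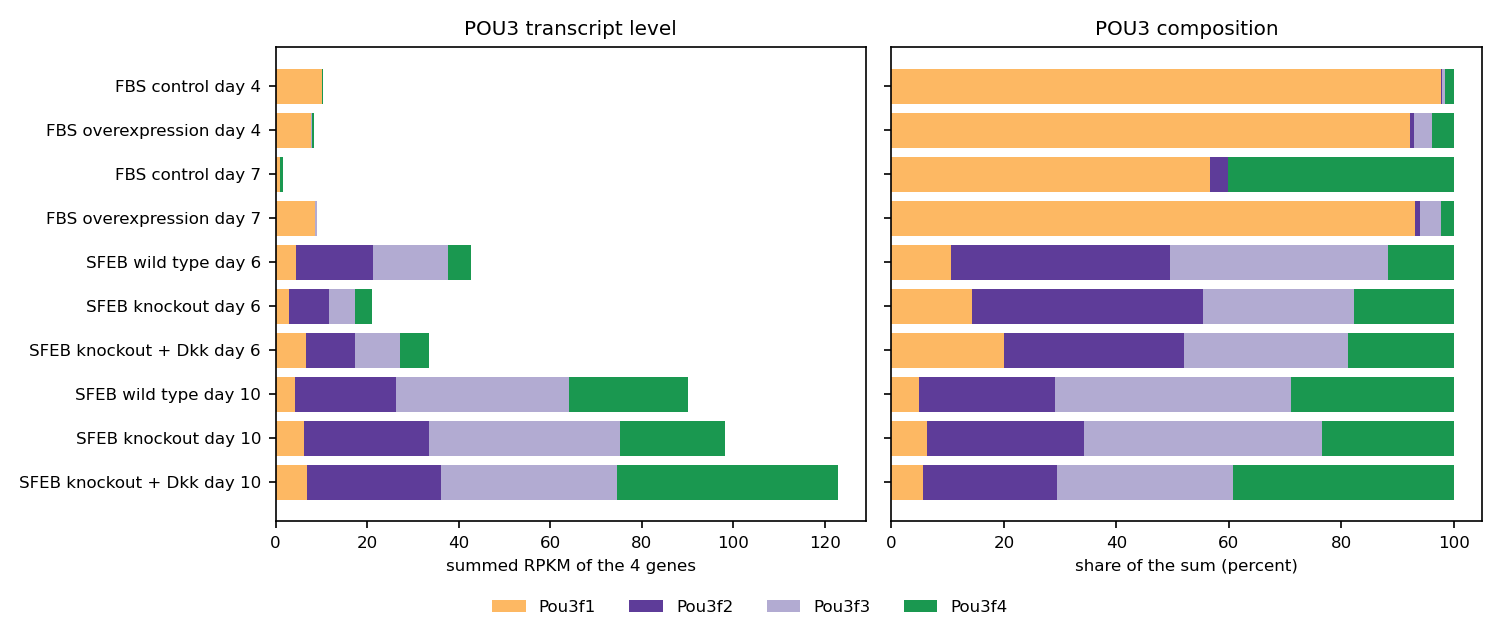
Summed RPKM of the POU3 genes (left) and the share of each in percent (right), 1 bar per library. *Pou3f1* makes up 56.6% to 97.7% of the sum in FBS and 4.82% to 20.0% in SFEB, where the sum reaches 122.93 RPKM.

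The 4 POU3 genes each have 1 exon in GENCODE vM21 and resemble each other in the POU domain, so reads could in principle be shared. Of all 30-base windows of each transcript, between 0.236% and 0.828% also occurred in another POU transcript, *Pou3f2* having the most, 46 of 5558. *Pou3f3* shares its strand with the overlapping *AC122898.1* and *Slc1a3* with *Gm37310*. *Nr2f1*, *Msi1* and *Pou3f1* overlap antisense genes (*A830082K12Rik*, *4930430O22Rik* and *Gm2164*). These overlapping genes are not rows of the table, and whether reads were counted by strand is not given in the sources used here.

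Between day 6 and day 10 of SFEB, *Fabp7*, *Slc1a3*, *Pou3f2*, *Pou3f3* and *Pou3f4* rose. The test was limma on log2(RPKM + 0.5) over 13757 genes, with condition and day as additive terms within each culture. The 3 SFEB conditions stand in as replicates of the day difference. The spread was estimated from the SFEB and FBS libraries together, so FBS values also enter the SE and p-values. Benjamini-Hochberg adjusted p under 0.05 counted as called. limma called 5 of the 10 genes, all higher on day 10. Of all 13757 genes it called 3878 higher and 2495 lower on day 10, 46.3% in either direction. The count called in either direction is therefore close to the background, and the values carry the description.

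*Pou3f4* rose by 2.53 ± 0.24 (SE) on the log2 scale (limma adjusted p = 0.000537), with ratios of 2.26 in WT, 2.47 in KO and 2.85 in KO with Dkk. *Fabp7* rose by 2.99 ± 0.41 (limma adjusted p = 0.00176), with ratios of 2.18, 3.68 and 3.12. *Pou3f3* rose by 1.95 ± 0.30 (limma adjusted p = 0.00253), with ratios of 1.17, 2.77 and 1.91. These 3 genes were higher on day 10 in 3 of 3 conditions.

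*Slc1a3* rose by 1.82 ± 0.27 (limma adjusted p = 0.00216), with ratios of 1.91, 2.32 and 1.24 in the same order. *Pou3f2* rose by 1.13 ± 0.26 (limma adjusted p = 0.0115), with ratios of 0.39, 1.60 and 1.41. *Pou3f2* was called in 8 of the 9 settings tried; without the filter on low genes its limma adjusted p was 0.0748. The other 4 called genes were called in 9 of 9 settings. For each of the 5, all day 10 libraries were above all day 6 libraries. The same held for *Nr2f1* and *Nes*, which did not pass the test (below). The share of all genes separated in this way was not computed.

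The remaining 5 genes did not pass. *Nr2f1* differed by 0.91 ± 0.34 (limma adjusted p = 0.0682) and *Nes* by 0.74, with a limma adjusted p of 0.173. Of the 9 settings tried, *Nr2f1* was called in 2 and *Nes* in 1, in each case including the fit of the SFEB libraries alone. *Pou3f1* differed by 0.30, *Msi1* by 0.10 and *Pax6* by -0.10, with limma adjusted p-values of 0.680, 0.748 and 0.696. *Pax6*, the progenitor factor, and *Msi1* thus had day estimates nearest 0, beside the rise of *Fabp7* and of 3 POU3 factors.

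Condition by condition, 4 of the 10 genes exceeded 2-fold upward by day 10 in WT, where 16.9% of 12912 compared genes were higher and 7.98% lower by that much. In KO 7 were, against 21.1% of genes higher and 8.01% lower, and in KO with Dkk 6 were, against 17.6% higher and 6.81% lower; 0 were 2-fold lower in any condition. The median log2 ratio of the 10 genes was 0.39 in WT, 1.43 in KO and 1.16 in KO with Dkk, beside 0.09, 0.16 and 0.14 over all compared genes. *Nr2f1* passed 2-fold in KO (1.27) and KO with Dkk (1.07) but stood at 0.39 in WT, and *Nes* passed it in KO, at 1.17. *Pou3f1*, at 0.93 in KO, also passed with a pseudocount of 0.1 (1.02) or TPM scaling (1.08). The difference between conditions in the day ratio was not tested, since each has 1 library per day.

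**Figure D3:**
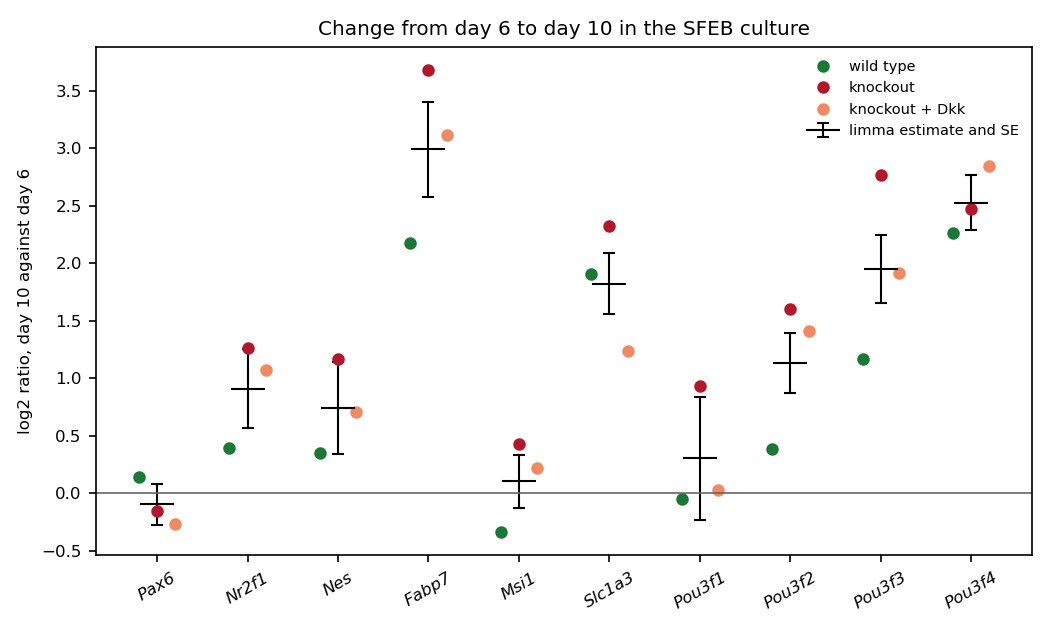
Log2 ratio of day 10 to day 6 of SFEB for each gene; points are the 3 conditions, 1 library per day each, and the black bar is the limma estimate with its SE. *Pou3f4* (2.53 ± 0.24) has close conditions, whereas *Fabp7* runs from 2.18 in WT to 3.68 in KO.

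Neuronal markers moved over the same days. The 12 of that list summed to between 132 and 249 RPKM on day 6 and to between 2197 and 2626 RPKM on day 10, and 11 of 12 in WT and 12 of 12 in both KO conditions were at least 2-fold higher. Their part in the rise of the POU3 factors, which neurons also express, was not tested. Of 24 other radial glia and neural progenitor genes, 23 were compared, of which 8 were at least 2-fold higher in WT, 11 in KO and 8 in KO with Dkk, and 2 were lower in each. Of 11 other POU genes, 7 were compared; 5, 4 and 4 were higher and 0, 1 and 2 lower.

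Most of the 10 genes were lower in the Tet3 KO library than in WT on day 6, and most were slightly higher on day 10. On day 6, 8 of the 10 were lower, and *Pax6* and *Slc1a3* were higher. Of all compared genes, 49.2% were higher in KO on that day. *Pou3f3* and *Fabp7* were at least 2-fold lower and 0 genes were 2-fold higher, where 2.18% of compared genes were lower and 4.88% higher by that much. The median log2 ratio was -0.62, beside 0 over all compared genes. On day 10, 9 of the 10 were above WT and *Pou3f4* below it, where 54.8% of compared genes were above WT. Only 1 gene, *Slc1a3*, passed 2-fold upward and 0 downward, against 8.26% and 1.96% of genes. The median was 0.28, beside 0.06 over all compared genes.

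*Pou3f3* had the lowest day 6 ratio, -1.46 on the log2 scale (16.55 RPKM in WT and 5.68 in KO). *Fabp7* followed at -1.22 (137.47 and 58.76 RPKM) and *Pou3f2* at -0.91 (16.68 and 8.67 RPKM). The 95% intervals for counting error, taken from estimated reads without the pseudocount, were -1.70 to -1.38 for *Pou3f3* and -1.38 to -1.07 for *Fabp7*; they hold no variation between cultures. *Nes* stood at -0.68, *Msi1* at -0.64, *Nr2f1* at -0.59, *Pou3f1* at -0.51 and *Pou3f4* at -0.39. On day 10 these 8 genes lay between -0.17 (*Pou3f4*) and 0.47 (*Pou3f1*).

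*Slc1a3* and *Pax6* were higher in KO on both days. *Slc1a3* had log2 ratios of 0.70 on day 6 and 1.12 on day 10, and *Pax6* had 0.60 and 0.31. Over both days, with the days standing in as replicates, limma called 0 of the 10 genes between KO and WT, while it called 0.211% of all genes. At an unadjusted p under 0.05 it held 2017 of 13757 genes. Among them was 1 of the 10, *Slc1a3*, at 0.91 ± 0.33 (SE, limma adjusted p = 0.271). For *Pou3f3* the limma estimate was -0.66 ± 0.36 (adjusted p = 0.450) and for *Fabp7* -0.47 ± 0.50 (adjusted p = 0.710), both having ratios of opposite sign on the days.

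Markers of other cell types differed between these libraries. The 10 mesoderm markers summed to 8.37 RPKM in WT, 292 in KO and 26.9 in KO with Dkk on day 6, and 9 of the 9 compared were at least 2-fold higher in KO. On day 10 they summed to 13.7, 26.5 and 11.1 RPKM, while the 8 fibroblast and matrix markers summed to 43.5 RPKM in WT, 629 in KO and 63.4 in KO with Dkk, with 8 of 8 higher in KO. Neuronal markers summed to 249 RPKM in WT and 132 in KO on day 6. The part of these markers in the lower POU3 and *Fabp7* values of day 6 and in the higher *Slc1a3* value of day 10 was not tested.

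Related genes did not all follow. Of the 23 other radial glia and neural progenitor genes compared, 1 was at least 2-fold higher and 0 lower in KO on day 6, with a median log2 ratio of 0.06, and 4 were higher and 2 lower on day 10. *Hopx*, a homeodomain-only factor of radial glia, passed 2-fold on both days (1.36 and 3.65 RPKM in WT and KO on day 6, 3.90 and 10.78 on day 10). Of 7 other Pax genes compared, 2 were higher and 4 lower on day 6. *Pax7*, a dorsal neural and muscle progenitor factor, was at 11.61 RPKM in WT and 2.74 in KO on day 6 and at 9.07 and 3.68 on day 10. *Pax1*, a factor of the sclerotome, was at 0.07 and 3.08 RPKM on day 6 and at 0.27 and 1.56 on day 10. Of 7 other POU genes compared, 0 passed 2-fold on day 6 and 2 were lower on day 10.

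With Dkk, the KO library was compared with the KO library without it. These ratios share the KO libraries with the comparison of KO and WT, so opposite signs in the 2 are no independent evidence. On day 6, 8 of the 10 genes were higher with Dkk, *Pax6* and *Slc1a3* being lower. Of all compared genes, 50.9% were higher with Dkk. The median log2 ratio was 0.44 for the 10 genes and 0.006 over all compared genes. *Pou3f1* was at least 2-fold higher (3.02 and 6.73 RPKM, log2 1.04) and 0 genes were lower by that much, against 2.18% of genes higher and 3.57% lower. With a pseudocount of 1 in place of 0.5, *Pou3f1* no longer passed. *Pou3f3* stood at 0.74, *Pou3f4* and *Msi1* at 0.68, *Fabp7* at 0.47, *Nes* at 0.42, *Pou3f2* at 0.29 and *Nr2f1* at 0.16.

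On day 10, Dkk gave 1 gene past 2-fold upward and 1 downward, against 1.70% and 5.23% of genes. The higher one was *Pou3f4* (23.06 and 48.37 RPKM, log2 1.05) and the lower one *Slc1a3* (26.64 and 9.12 RPKM, log2 -1.50). *Pax6* was the gene nearest below the 2-fold mark, at -0.97 (29.64 and 14.87 RPKM), after -0.86 on day 6. Under TPM scaling the day 10 count became 0 higher and 2 lower, with *Pou3f4* at 0.97 and *Pax6* at -1.08. The other 7 genes lay between -0.12 (*Pou3f3*) and 0.47 (*Msi1*).

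Over both days limma called 0 of the 10 genes with Dkk, and 0.131% of all genes. At an unadjusted p under 0.05 it held 781 of 13757 genes. Among them were 3 of the 10: *Pax6* at -0.91 ± 0.22 (SE, limma adjusted p = 0.378), *Slc1a3* at -0.95 ± 0.33 (limma adjusted p = 0.697) and *Pou3f4* at 0.87 ± 0.29 (limma adjusted p = 0.689). Fibroblast and matrix markers were 2-fold or more lower with Dkk on day 10 in 8 of 8 cases, and mesoderm markers on day 6 in 8 of the 9 compared; their part in the *Slc1a3* and *Pax6* values was not tested.

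Some forebrain progenitor factors outside the 10 genes were higher with Dkk on both days. *Emx2* was at 1.01 and 5.20 RPKM without and with Dkk on day 6 and at 0.99 and 7.55 on day 10. *Lhx2* was at 0.30 and 1.68 RPKM, then 2.16 and 38.64, and *Nr2e1* (Tlx) at 0.06 and 1.36, then 0.62 and 9.84. In the whole list of 23, 4 passed 2-fold upward and 1 downward on day 6, and 3 and 2 on day 10.

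Set against WT, the KO with Dkk had 0 genes at least 2-fold higher or lower on either day, where the upward and downward shares of all genes were 1.58% and 0.976% on day 6, and 4.59% and 1.68% on day 10. On day 6 the lowest ratios were those of *Fabp7* (-0.75) and *Pou3f3* (-0.72), and the highest that of *Pou3f1* (0.53). On day 10 *Pou3f4* was the highest (0.88) and *Pax6* the lowest (-0.66). limma called 0 of the 10 genes over both days, while it called 0.00727% of all genes. At an unadjusted p under 0.05 it held 0 of the 10, beside 1618 of 13757 genes.

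In FBS, *Pax6* was higher with Tet3 overexpression on both days by more than 2-fold, and no other compared gene passed 2-fold on both. Here 7 of the 10 genes were compared, since *Pou3f2*, *Pou3f3* and *Pou3f4* stayed under 1 RPKM in all 4 libraries. *Pax6* had log2 ratios of 1.58 on day 4 (1.57 and 5.71 RPKM) and 2.26 on day 7 (0.33 and 3.47 RPKM). On day 4 it was the 1 gene at least 2-fold higher and *Nes* the 1 gene lower (31.45 and 8.61 RPKM, log2 -1.81), against 1.72% and 3.47% of 12387 compared genes.

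On day 7, 3 genes passed 2-fold upward with overexpression and 1 downward, against 6.96% and 11.1% of genes. *Pou3f1* was at 0.86 RPKM in the control and 8.52 with overexpression (log2 2.73), and *Fabp7* at 0.72 and 3.75 (log2 1.80), beside *Pax6*. *Nr2f1* was the lower one, at 2.30 and 0.26 RPKM (log2 -1.88). *Nes* stood at 0.54 on day 7, opposite in sign to day 4.

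limma called 0 of the 7 compared genes and 0 of all 10 over both days, against 0.0945% of all genes. *Pax6* was the 1 gene of the 10 at an unadjusted p under 0.05, where limma held 2702 of 13757 genes. *Pax6* stood at 1.92 ± 0.22 (SE, limma adjusted p = 0.0553). Its adjusted p ran from 0.0360 to 0.353 over the 9 settings, under 0.05 in 2 of them. In SFEB, *Pax6* at 14.87 to 33.07 RPKM was well above the 3.47 and 5.71 RPKM reached in FBS with overexpression.

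**Figure D4:**
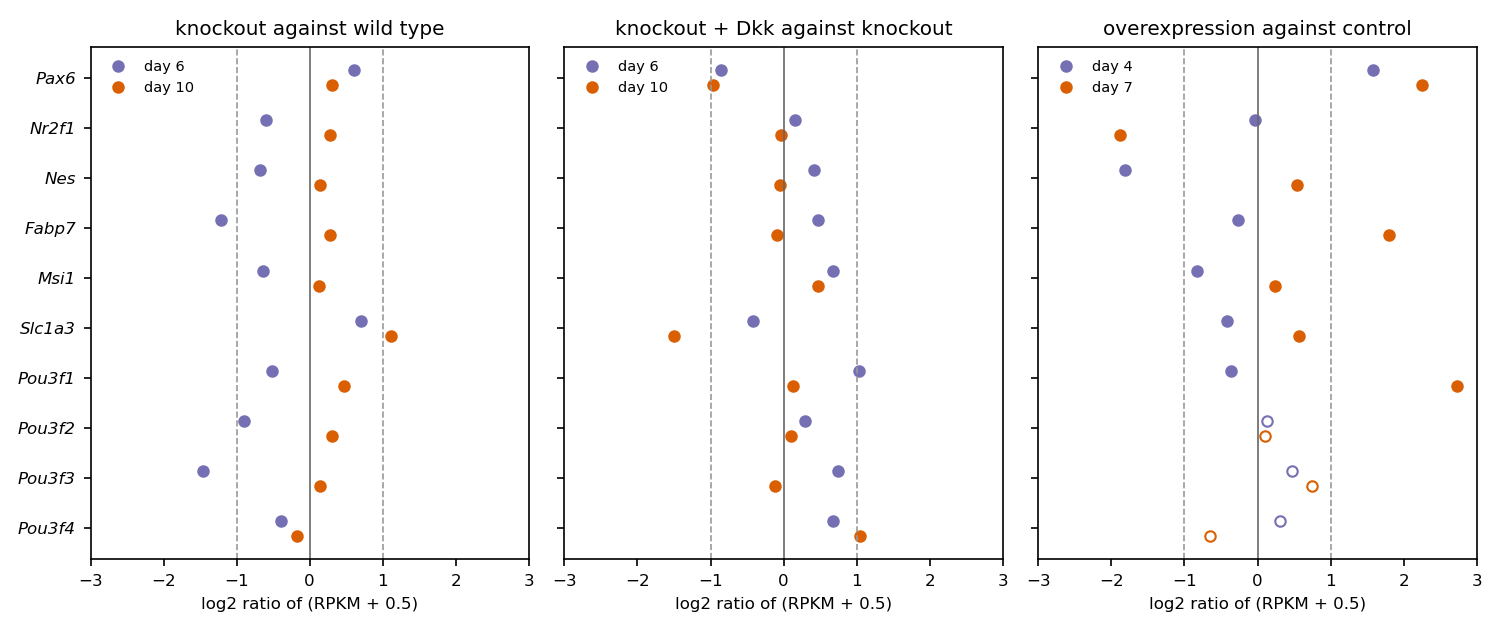
Log2 ratio of (RPKM + 0.5) for each gene in KO against WT, KO with Dkk against KO, and overexpression against control; each point compares 1 library with 1 other, dashed lines mark 2-fold, and open points are genes under 1 RPKM in all FBS libraries. In KO against WT, 8 of the 10 genes lie below 0 on day 6 and 9 above 0 on day 10. Of all compared genes, 49.2% and 54.8% lie above 0 on these days. *Pax6* lies above 0 in KO and in overexpression on both days and below 0 with Dkk.

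In the FBS control, *Pou3f1* (log2 -2.96), *Nes* (-1.43) and *Pax6* (-1.32) were lower on day 7 than on day 4 by 2-fold or more and *Nr2f1* (1.62) was higher, against 8.71% of genes lower and 11.5% higher. With a pseudocount of 1, *Pax6* stood at -0.95 and did not pass. With overexpression *Fabp7* was higher by 1.40 and 0 genes were lower by 2-fold, against 3.49% and 1.20% of genes. limma called 0 of the 10 genes between the FBS days, against 0.451% of all genes. At an unadjusted p under 0.05 it held 2519 of 13757 genes. Among them was 1 of the 10, *Pax6* at -0.98 ± 0.22 (SE, limma adjusted p = 0.133). The overexpression and day ratios of day 7 share the control library of that day, in which 7 of 8 pluripotency markers were at least 2-fold lower than on day 4.

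Other markers in FBS differed as well. The 12 neuronal markers summed to 163 and 53.1 RPKM in the control on days 4 and 7 and to 266 and 225 with overexpression. Of 7 compared, 1 was at least 2-fold higher with overexpression on day 4 (median log2 ratio 0.23) and 6 on day 7 (median 1.99). The 1 of day 4 was *Tubb3*, a neuronal tubulin. It was at 17.99 and 69.23 RPKM in control and overexpression on day 4 and at 6.37 and 42.75 on day 7. Fibroblast and matrix markers summed to 360 RPKM in the control on day 7 and 38.2 with overexpression, and endothelial markers to 113 and 24.8. Of 18 other radial glia and neural progenitor genes compared, 0 passed 2-fold upward and 2 downward with overexpression on day 4, and 1 and 8 on day 7. Their part in the *Pax6*, *Pou3f1* and *Fabp7* values was not tested.

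The 10 genes did not share 1 profile across the 6 SFEB libraries. Likeness was measured as the root mean square difference of centred log2(RPKM + 0.5) values, among 12902 other genes at 1 RPKM or more in SFEB, and is given as a description. *Nr2f1* and *Nes* were the nearest pair of the 10, at 0.12, and *Pou3f2* lay 0.15 from *Nr2f1*. For *Pax6* the nearest of the other 9 was *Msi1*, at 0.66, while outside the 10 *Arhgap42* lay at 0.10 and *Plat* at 0.11.

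Nearest to *Fabp7* outside the 10 genes were *Kif5a* (0.14) and *Cnih2* (0.15), to *Pou3f3* *B3gat1* (0.14) and *Jam2* (0.15), and to *Pou3f4* *Agap2* (0.12) and *C630043F03Rik* (0.15). Nearest to *Slc1a3* were *Alcam* (0.16) and *5730508B09Rik* (0.20), and to *Msi1* *Fbxo16* (0.08) and *Katnal2* (0.11). *Nr2f1* was nearest to *Cyb561d1* (0.06) and *Pdrg1* (0.07), and *Nes* to *Specc1* (0.06) and *Cyb561d1* (0.08). *Pou3f1* was nearest to *Rasgrp2* (0.12) and *Syt7* (0.12), and *Pou3f2* to *Dio3* (0.05) and *Nppc* (0.09). Some of these genes were near the floor, where the pseudocount shapes the profile. Over the SFEB libraries *Dio3* was at 0.05 to 1.4 RPKM, *Nppc* at 0 to 1.07 and *Rasgrp2* at 0.35 to 1.49.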

How the data were processed

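Gene values are RPKM as the authors deposited them, in a table of 21937 genes by 10 libraries, to 2 decimals. The labels' protocols give total RNA and SOLiD libraries, and the submitters' processing notes name HTSeq and mm9; the aligner, the strand setting and the gene models are not stated in what was used here. Depth was estimated from the steps between low values, so counting intervals cover counting error only and rest on estimated reads. Ratios are differences of log2(RPKM + 0.5); a gene was compared where any library of its culture reached 1 RPKM (12912 in SFEB, 12387 in FBS). Tests used limma 3.58.1 in R 4.3.3 over 10 libraries, with additive condition and day terms and 3 residual degrees of freedom. A mean trend and Benjamini-Hochberg adjustment were used. Simulated data covered only KO against WT, with 200 genes changed and no effect of day or culture. Of genes changed by 2 on the log2 scale 84% were recovered, and of those changed by 3, 95%. Of the calls 4.28% were false. The simulation does not bear on the day comparisons or on effects that vary between days. Both days of a culture stand in for replicates of a condition effect, and its conditions for replicates of a day effect. The p-values thus measure how effects vary between days or conditions, with 1 estimate of the spread per gene shared by both cultures. All 10 genes are named; of each list, at most 4 genes at least 2-fold different in 1 direction on both days are named, and for each gene the 2 most alike. The genes and lists were chosen with earlier results of these data known. Promoters come from RefSeq (GRCm38.p6). Pseudocounts of 0.1 and 1, TPM and median scaling, and other filters were the alternatives.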

Additional observations from a re-analysis of the deposited data

Results flagged for a closer look

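A group of 3 genes stood on opposite sides of 0 on the SFEB days when KO was compared with WT, each with a gap between the days of more than 2-fold. The log2 ratio on day 10 minus that on day 6 was 1.60 for *Pou3f3*, 1.503 for *Fabp7* and 1.22 for *Pou3f2*. In the comparison of overexpression with control, 4 genes did so between the FBS days: the ratio on day 7 minus that on day 4 was 3.10 for *Pou3f1*, 2.35 for *Nes*, 2.06 for *Fabp7* and 1.07 for *Msi1*. Each ratio rests on 1 library per side, and the difference between the days was not tested.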

How the results depend on the processing

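The number of the 10 genes at least 2-fold different, and the number called by limma, stayed within 1.5 times the reported count in 97 of the 100 alternative counts computed. In 3 of the 100, a pseudocount of 1 left 0 genes at least 2-fold different between KO with Dkk and KO on day 6, in place of *Pou3f1*, and limma called 1 gene, *Pax6*, with overexpression under median scaling and under a filter of 5 RPKM, in place of 0. Some counts that stayed within that margin also changed members. Between KO with Dkk and KO on day 10, TPM scaling gave 0 genes higher and 2 lower in place of 1 and 1, *Pou3f4* leaving (0.97) and *Pax6* entering (-1.08). Between the SFEB days in KO, *Pou3f1* entered with a pseudocount of 0.1 and under TPM scaling, giving 8 genes in place of 7. Between the FBS days in the control, *Pax6* left with a pseudocount of 1 (-0.95). Of single log2 ratios, 431 kept their size and 41 moved; none of those past 2-fold changed sign. TPM scaling shifted the median of all genes by -0.13 between KO with Dkk and WT on day 10, and no other scaling shifted a comparison by over 0.1. Counts over all genes were less stable. Over the 9 settings limma called 2 to 253 genes between KO and WT (29 reported), 1 to 86 between KO with Dkk and KO (18), 0 to 1 between KO with Dkk and WT (1), 0 to 47 with overexpression (13), 4677 to 7001 between the SFEB days (6373) and 0 to 94 between the FBS days (62). The highest SFEB counts came from fitting the SFEB libraries alone, where limma called 7 of the 10 genes between the days, *Nr2f1* and *Nes* being added; with a pseudocount of 1 it called 6, *Nr2f1* being added. No paired analysis was possible because the labels give no replicate numbers and each condition and day has 1 library, which also leaves no replicate to leave out. Depth limits *Pou3f2*, *Pou3f3* and *Pou3f4* in FBS, which rest on an estimated 0 to 48 reads per library.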

Other observations

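Relatives of the 10 genes had levels of their own across the libraries, and those named here were chosen after their values were seen. *Hes5*, a Notch target of neural progenitors, was at 0.06 to 0.18 RPKM in FBS. It was at 45.37, 23.93 and 33.36 RPKM in WT, KO and KO with Dkk on day 6 of SFEB. Its KO library was the lowest on that day, as those of *Fabp7* and *Pou3f3* were. In the list that holds *Hes5*, 0 of the 23 genes compared between KO and WT on day 6 were at least 2-fold lower, *Hes5* itself included. There 1 was at least 2-fold higher, and the median log2 ratio was 0.06, so the list as a whole was not lower. On day 10 *Hes5* was at 45.89, 54.36 and 65.84 RPKM. *Ttyh1*, a membrane protein of neural stem cells, was at 5.61, 3.48 and 6.22 RPKM on day 6 and at 42.94, 65.12 and 44.48 on day 10. *Nr2f2*, the paralog of *Nr2f1*, was at 8.76, 11.52 and 7.22 RPKM on day 6 and at 19.47, 27.44 and 21.07 on day 10, the KO being the highest on both days, where *Nr2f1* was lowest in KO on day 6. *Fabp5* was at 96.4 to 274 RPKM in SFEB and at 53.9 to 97.7 RPKM in FBS, so its cultures overlapped where those of *Fabp7* did not. *Fabp3* ran the other way, at 64.0 to 321 RPKM in FBS and 13.3 to 24.5 RPKM in SFEB.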
